A study of Mus musculus with 24 samples.

Results

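The genes described are 5 acute phase protein genes, Saa3, Lcn2, Lbp, Hp and Ptx3, out of 19938 mouse genes measured on 24 Affymetrix arrays. They were chosen by gene symbol, with earlier results of these data known. Each had 1 probe set with that symbol alone: 10563597 for Saa3, 10481627 for Lcn2, 10478048 for Lbp, 10581605 for Hp and 10492448 for Ptx3. All 5 averaged above a log2 level of 6 in at least 1 group. The arrays came from 3 kinds of cell, each given an inflammatory supernatant or left in RPMI media, with 4 arrays in each of the 6 groups. The order is C57epi.1 in supernatant and in media, Bm12.4 in supernatant and in media, and macrophages in supernatant and in media. C57BL/6 mice were the source of C57epi.1, an epithelial line of the upper reproductive tract. Bm12.4 is such a line from B6(C)-H2-Ab1bm12/KhEgJ mice, whose MHC class II beta chain is mutant. GM-CSF was used to grow the macrophages from C57BL/6 femur bone marrow. The supernatant was used at 33% (v/v). It had been conditioned by CD4 T cells, a clone specific for Chlamydia, together with infected epithelial monolayers, and its interferon-gamma was brought to 4 ng/ml. All groups shared the basal RPMI medium with serum, HEPES, 2-mercaptoethanol and gentamicin. The labels give no duration of treatment and do not say whether the 4 arrays of a group came from separate cultures. The p-values thus describe only the spread between these arrays, which may be technical.

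Acute phase proteins are secreted proteins whose blood level climbs during infection or injury, mostly from the liver, under IL-6, IL-1 and TNF acting through STAT3, NF-kappaB and C/EBP factors. Several are also made outside the liver, by epithelium and by macrophages at the site of inflammation. Lcn2 (lipocalin 2) binds bacterial siderophores and so withholds iron. Lbp (lipopolysaccharide binding protein) hands endotoxin to CD14 and on to TLR4. Ptx3 (the long pentraxin 3) marks microbes for complement and phagocytes. Hp (haptoglobin) captures free haemoglobin. Saa3 is the serum amyloid A protein that the mouse makes mainly outside the liver.

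RefSeq promoter windows were found for 3 of the 5 members, Saa3, Lcn2 and Ptx3. They are shown because supernatant raised the signal of each of these genes in at least 1 kind of cell. Each stretch runs 5′ to 3′ on the gene's strand, from 250 bases before the transcript start to 30 after it, and capitals mark motif matches. In build GRCm38.p6, the Saa3 stretch is chr7:46715647-46715926 on the minus strand, the Lcn2 stretch is chr2:32387710-32387989 on the minus strand and the Ptx3 stretch is chr3:66219637-66219916 on the plus strand.
Saa3: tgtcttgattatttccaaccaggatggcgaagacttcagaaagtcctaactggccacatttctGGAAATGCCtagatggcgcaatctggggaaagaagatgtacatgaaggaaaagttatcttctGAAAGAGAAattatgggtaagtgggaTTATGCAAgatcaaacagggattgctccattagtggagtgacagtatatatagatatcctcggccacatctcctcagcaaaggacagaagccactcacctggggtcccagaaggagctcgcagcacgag
Lcn2: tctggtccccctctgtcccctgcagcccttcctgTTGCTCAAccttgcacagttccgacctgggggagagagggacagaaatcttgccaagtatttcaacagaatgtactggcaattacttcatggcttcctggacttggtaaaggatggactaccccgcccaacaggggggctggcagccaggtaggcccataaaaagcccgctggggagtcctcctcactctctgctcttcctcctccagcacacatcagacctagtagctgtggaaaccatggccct
Ptx3: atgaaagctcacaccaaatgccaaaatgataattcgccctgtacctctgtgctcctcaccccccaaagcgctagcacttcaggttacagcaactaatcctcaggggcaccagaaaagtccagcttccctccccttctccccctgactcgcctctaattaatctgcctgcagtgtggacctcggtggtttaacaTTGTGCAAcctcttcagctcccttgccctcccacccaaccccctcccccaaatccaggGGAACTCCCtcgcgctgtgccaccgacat
The search covered both strands of the 300-base windows. The motifs were kappaB as GGNNNTTCC, C/EBP as TTGCNNAA, STAT as TTCNNNGAA and an interferon response motif as GAAANNGAA. The Saa3 window held a kappaB match from 187 to 179 bases before the start, an interferon response match from 125 to 117 and a C/EBP match from 99 to 92. The Lcn2 window held a C/EBP match from 216 to 209 bases before the start. The Ptx3 window held a C/EBP match from 57 to 50 bases before the start and a kappaB match from bases 2 to 10 of the transcript. No STAT match lay in the 3 windows, and no matches overlapped. Of 32851 windows, 18.5% held the kappaB motif, 10.8% the C/EBP motif, 8.3% the STAT motif and 8.56% the interferon response motif. A match describes letters and was not tested as a binding site.

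The members that passed the test with supernatant were not the same in the 3 kinds of cell. In C57epi.1 cells Saa3 rose and Hp fell. In Bm12.4 cells Saa3, Lcn2 and Hp rose. In macrophages Lcn2 and Ptx3 rose. Lbp passed the test in none of the 3 treatment comparisons. A call in 1 kind of cell and none in another is no test of a difference between them. Tests of that difference over all replicates, given below, called values of Hp, Saa3 and Ptx3 and none of Lcn2 or Lbp. The calls come from 1 limma model over all 24 arrays, at a Benjamini-Hochberg adjusted p under 0.05 over all genes.

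In C57epi.1 cells, 1 of the 5 members was called higher and 1 lower, where 8.85% of all genes were higher and 10.4% lower. In Bm12.4 cells 3 members were called higher and 0 lower, against 4.54% and 2.7% of all genes. In macrophages 2 were called higher and 0 lower, against 6.13% and 6.31%. Because the members were chosen with earlier results of these data known, such counts beside the shares of all genes are only a description. The median difference of the 5 members was 0.42 log2 in C57epi.1 cells, 1.46 in Bm12.4 cells and 0.29 in macrophages, and that of all genes was -0.045, -0.05 and -0.0175. Fitted on the Bm12.4 arrays alone, 574 genes were called higher and 212 lower in Bm12.4 cells, and 732 and 343 with replicate number as a block, against 906 and 539 in the model over all arrays.

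**Figure D1:**
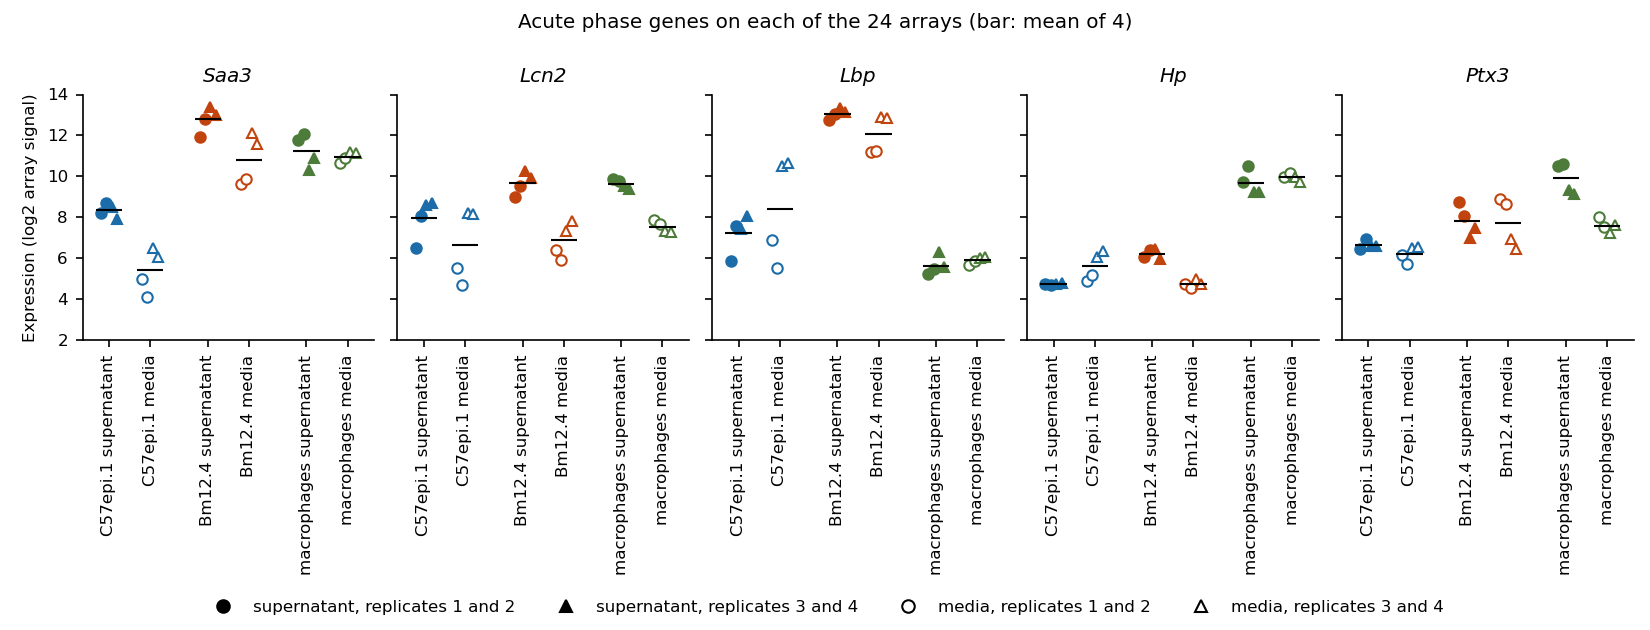
Deposited log2 signal of each acute phase gene on each array, by kind of cell and treatment (x axis), with filled symbols for supernatant, open symbols for media, circles for replicates 1 and 2, triangles for replicates 3 and 4, and a bar at the mean of 4. Media arrays of the epithelial lines split by replicate, most widely for Lbp in C57epi.1 cells, at 6.9 and 5.51 against 10.49 and 10.67.

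The arrays of both lines fell into pairs, most widely in media, and this touches each result on the lines. Replicates 3 and 4 stood apart from replicates 1 and 2. The mean of 19 cell cycle genes was 10.4, 10.35, 9.05 and 9.14 log2 on the 4 C57epi.1 media arrays, and 10.25, 10.28, 7.62 and 7.87 on the 4 Bm12.4 media arrays. On the supernatant arrays it was 10.03, 9.81, 9.66 and 9.75 in C57epi.1 cells and 10.12, 9.67, 8.9 and 9.32 in Bm12.4 cells. The labels name no batch behind these numbers, and the part of this split in the results was not tested. Differences of the members are therefore given also within replicates 1 and 2 and within replicates 3 and 4 where the pair changes the call or the size. These pairs were chosen because of the split seen in these same arrays, and each such fit holds 2 arrays per group. Their adjusted p leaves out the spread between the pairs, so calls within a pair are a description.

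Some members differed between these pairs of media arrays by more than nearly all other genes. In C57epi.1 media, the mean of replicates 3 and 4 minus that of replicates 1 and 2 was 4.38 log2 for Lbp, the 2nd highest of 19938 genes, and 3.06 for Lcn2, the 9th highest. It was 1.75 for Saa3, 1.18 for Hp and 0.59 for Ptx3. In Bm12.4 media it was 2.09 for Saa3, 1.65 for Lbp, 1.41 for Lcn2, 0.23 for Hp and -2.07 for Ptx3. Ptx3 thus ran opposite to Saa3, Lcn2 and Lbp in the Bm12.4 media arrays. The supernatant arrays of the lines were split too. In C57epi.1 supernatant the same quantity was 1.34 log2 for Lcn2, the 9th highest of all genes, 1.01 for Lbp, -0.25 for Saa3, -0.09 for Ptx3 and 0.04 for Hp. In Bm12.4 supernatant it was 0.83 for Saa3 and for Lcn2, 0.33 for Lbp, -0.01 for Hp and -1.15 for Ptx3. Macrophage supernatant gave -1.32 log2 for Saa3, the 17th lowest of all genes, -1.3 for Ptx3, the 18th lowest, -0.87 for Hp, -0.37 for Lcn2 and 0.59 for Lbp. These pairs are described with no test.

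**Figure D2:**
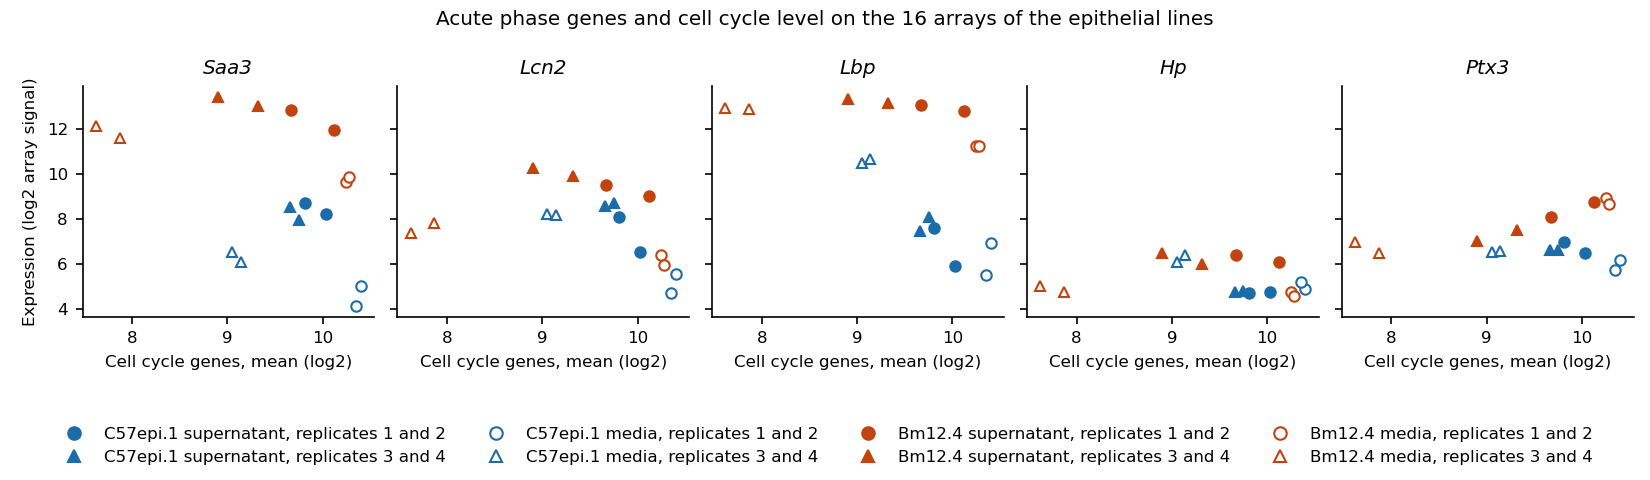
Log2 signal of each acute phase gene (y axis) against the mean log2 signal of 19 cell cycle genes (x axis) on the 16 arrays of the epithelial lines, with filled symbols for supernatant, open for media, circles for replicates 1 and 2 and triangles for replicates 3 and 4. The Bm12.4 media arrays of replicates 3 and 4, at 7.62 and 7.87 for the cell cycle genes, lie farthest to the left.

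Saa3 was low in C57epi.1 media and rose with supernatant in both lines. Its log2 signal was 8.22, 8.71, 8.51 and 7.93 in C57epi.1 supernatant, against 4.99, 4.1, 6.51 and 6.07 in C57epi.1 media. All supernatant arrays lay above all media arrays. The difference was 2.93 log2 (SE 0.523, 7.59-fold, limma adjusted p = 0.000275). In Bm12.4 cells it was 11.92, 12.81, 13.41 and 12.99 in supernatant, against 9.63, 9.85, 12.1 and 11.56 in media. There the lowest supernatant array lay below the highest media array. The difference was 2 log2 (SE 0.523, 3.99-fold, limma adjusted p = 0.018).

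Macrophages held a high Saa3 signal with or without supernatant, at 11.77, 12.07, 10.32 and 10.88 in supernatant against 10.66, 10.9, 11.2 and 11.13 in media. These groups overlapped, and the difference of 0.29 log2 was not called (95% interval -0.8 to 1.37, limma adjusted p = 0.859). The macrophage difference was 1.14 log2 in replicates 1 and 2 (adjusted p = 0.0278), and within replicates 3 and 4 it was -0.56 (adjusted p = 0.169). In C57epi.1 cells the same splits gave 3.92 and 1.93 log2, and in Bm12.4 cells 2.63 and 1.37, all called. The Bm12.4 call was lost when supernatant replicate 3 or 4 or media replicate 1 or 2 was left out, with adjusted p up to 0.0725.

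The treatment difference of Saa3 was larger in C57epi.1 cells than in macrophages, by 2.64 log2 (SE 0.74, limma adjusted p = 0.0239). That call was lost without C57epi.1 supernatant replicate 2 (2.52 log2) or macrophage supernatant replicate 3 (2.32 log2), with adjusted p up to 0.0539. C57epi.1 and Bm12.4 cells were not called different in this respect (0.93 log2, 95% interval -0.61 to 2.46), nor were Bm12.4 cells and macrophages (1.71 log2, adjusted p = 0.239). The last was called in replicates 3 and 4 (1.93 log2, adjusted p = 0.00293) and not in replicates 1 and 2 (1.49 log2, adjusted p = 0.0575). By group mean Saa3 stood highest in Bm12.4 supernatant (12.78 log2), then in macrophage supernatant (11.26), macrophage media (10.97), Bm12.4 media (10.79), C57epi.1 supernatant (8.34) and C57epi.1 media (5.42). Neighbours among the first 4 groups overlapped, and both C57epi.1 groups stood below all others without overlap.

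Saa1 and Saa2, the serum amyloid A genes of the mouse liver, had group means between 2.56 and 3.29 log2 in every group. Neither passed the test in a treatment comparison.

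Lcn2 rose with supernatant in Bm12.4 cells and in macrophages. In Bm12.4 cells its log2 signal was 9, 9.51, 10.26 and 9.9 in supernatant, against 6.4, 5.94, 7.34 and 7.82 in media. In macrophages it was 9.88, 9.78, 9.55 and 9.37 in supernatant, against 7.87, 7.68, 7.34 and 7.27 in media. In neither kind of cell did supernatant and media arrays overlap. The difference was 2.79 log2 in Bm12.4 cells (SE 0.615, 6.93-fold, limma adjusted p = 0.00448) and 2.1 log2 in macrophages (SE 0.615, 4.3-fold, limma adjusted p = 0.0242).

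The macrophage values of Lcn2 were tight within each group, and the call there rests on a spread shared with the lines. It was lost when macrophage supernatant replicate 1 or 2 or media replicate 3 or 4 was left out, with differences of 2.01 to 2.06 log2 and adjusted p up to 0.0669. The macrophage difference was, in replicates 1 and 2 alone, 2.06 log2 (adjusted p = 0.00451), and within replicates 3 and 4 it was 2.16 (adjusted p = 6.38e-07). The Bm12.4 difference was 3.08 and 2.5 log2 in the same splits.

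In C57epi.1 cells Lcn2 was 6.51, 8.09, 8.58 and 8.7 log2 in supernatant, against 5.55, 4.7, 8.22 and 8.15 in media. The groups overlapped, with media replicates 3 and 4 among the supernatant arrays. The difference of 1.32 log2 was not called over all 4 replicates (SE 0.615, limma adjusted p = 0.158). It was called within replicates 1 and 2 (2.17 log2, adjusted p = 0.00401) and, smaller, within replicates 3 and 4 (0.46 log2, adjusted p = 0.0476). It was also called without C57epi.1 media replicate 3 (1.84 log2, adjusted p = 0.0456).

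Over all replicates no pair of cell kinds was called different in the treatment difference of Lcn2, with values of -1.48 log2 for C57epi.1 minus Bm12.4 (95% interval -3.28 to 0.33), -0.79 for C57epi.1 minus macrophages (-2.6 to 1.02) and 0.69 for Bm12.4 minus macrophages (-1.12 to 2.49). In replicates 3 and 4 alone the difference was called lower in C57epi.1 than in Bm12.4 cells (-2.04 log2, adjusted p = 9.49e-05) and than in macrophages (-1.7 log2, adjusted p = 0.000165). In replicates 1 and 2 these were -0.91 log2 (adjusted p = 0.54) and 0.12 (adjusted p = 0.94). By group mean Lcn2 stood highest in Bm12.4 supernatant (9.67 log2) and macrophage supernatant (9.64), which overlapped. C57epi.1 supernatant (7.97) came next without overlap, and macrophage media (7.54), Bm12.4 media (6.88) and C57epi.1 media (6.66) followed, each overlapping with its neighbour.

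Lbp separated the kinds of cell more than the treatments. In Bm12.4 cells its log2 signal was 12.76, 13.04, 13.32 and 13.14 in supernatant, against 11.21, 11.24, 12.9 and 12.86 in media. In macrophages it was 5.21, 5.48, 6.31 and 5.56 in supernatant, against 5.67, 5.87, 6 and 6.06 in media. All Bm12.4 arrays lay above all arrays of the other cells. Bm12.4 exceeded macrophages by 7.42 log2 in supernatant (172-fold, limma adjusted p = 2.9e-08) and by 6.15 in media (71.1-fold, limma adjusted p = 5.62e-07).

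The Lbp arrays of C57epi.1 cells spread widely. They were 5.89, 7.58, 7.43 and 8.06 log2 in supernatant, against 6.9, 5.51, 10.49 and 10.67 in media. The highest and the lowest of these 8 arrays were both in media. The difference of -1.15 log2 was not called (SE 0.783, limma adjusted p = 0.377). Within replicates 1 and 2 it was 0.53 log2 (adjusted p = 0.585), and within replicates 3 and 4 it was -2.84 (adjusted p = 6.19e-07). Without media replicate 2 the difference over the remaining arrays was -2.11 log2 and was called (adjusted p = 0.0241).

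The Bm12.4 treatment difference of Lbp was 1.01 log2 and not called (95% interval -0.61 to 2.64, limma adjusted p = 0.572). In replicates 1 and 2 it was 1.67 log2 (adjusted p = 0.0416), and within replicates 3 and 4 it was 0.35 (adjusted p = 0.343). In macrophages it was -0.26 log2 (95% interval -1.89 to 1.37). C57epi.1 media exceeded macrophage media by 2.49 log2 (limma adjusted p = 0.0115), with overlapping arrays. That difference was 0.44 log2 in replicates 1 and 2 (adjusted p = 0.527) and 4.55 in replicates 3 and 4 (adjusted p = 6.75e-10). The call over all replicates was lost without C57epi.1 media replicate 3 (1.79 log2) or 4 (1.73 log2), with adjusted p up to 0.0665. By group mean the order was Bm12.4 supernatant (13.06 log2), Bm12.4 media (12.05), C57epi.1 media (8.39), C57epi.1 supernatant (7.24), macrophage media (5.9) and macrophage supernatant (5.64), and only Bm12.4 media and C57epi.1 media were neighbours without overlap.

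Hp was highest in macrophages. Over all replicates it was called higher with supernatant in Bm12.4 cells and lower in C57epi.1 cells. In macrophages its log2 signal was 9.74, 10.49, 9.25 and 9.24 in supernatant, against 9.97, 10.15, 9.97 and 9.74 in media. Every array of the lines lay below every macrophage array. C57epi.1 cells minus macrophages gave -4.94 log2 in supernatant and -4.34 in media, and Bm12.4 cells minus macrophages gave -3.46 in supernatant and -5.21 in media, all called with limma adjusted p of 1.05e-10 or less. The macrophage treatment difference of -0.28 log2 was not called over all replicates (limma adjusted p = 0.656), and within replicates 3 and 4 it was -0.61 (adjusted p = 0.0243).

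In Bm12.4 cells Hp was 6.05, 6.39, 6.45 and 5.97 log2 in supernatant, against 4.73, 4.54, 5 and 4.73 in media. All supernatant arrays lay above all media arrays, and Hp rose by 1.46 log2 (SE 0.263, 2.76-fold, limma adjusted p = 0.000594). In C57epi.1 cells it was 4.75, 4.69, 4.75 and 4.77 log2 in supernatant, against 4.87, 5.19, 6.05 and 6.37 in media. Here all supernatant arrays lay below all media arrays, and Hp fell by 0.88 on the log2 scale (SE 0.263, limma adjusted p = 0.0202). The 4 C57epi.1 supernatant arrays were nearly equal and as low as the Bm12.4 media arrays, and the C57epi.1 media arrays carried the spread. Both of these low groups lay at or below the array medians of 5 to 5.19 log2. The median is not a measure of background, but without detection calls such low signals cannot be told from it.

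The C57epi.1 fall of Hp was -1.45 log2 within replicates 3 and 4 (adjusted p = 1.66e-05) and -0.31 within replicates 1 and 2, where it was not called (adjusted p = 0.456). Its call over all replicates was lost without media replicate 3 (-0.74 log2) or 4 (-0.63 log2), with adjusted p up to 0.109. The Bm12.4 rise was 1.58 log2 within replicates 1 and 2 and 1.34 within replicates 3 and 4, both called. The treatment difference was lower in C57epi.1 than in Bm12.4 cells, by -2.34 log2 (SE 0.373, limma adjusted p = 0.000632), and higher in Bm12.4 cells than in macrophages, by 1.74 log2 (SE 0.373, limma adjusted p = 0.00464). Both were called when either pair of replicates was used alone. By group mean Hp stood highest in macrophage media (9.96 log2) and supernatant (9.68), which overlapped. After a gap came Bm12.4 supernatant (6.22), C57epi.1 media (5.62), Bm12.4 media (4.75) and C57epi.1 supernatant (4.74), each overlapping with its neighbour.

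Ptx3 rose with supernatant in macrophages and was called in neither line. Its log2 signal there was 10.52, 10.59, 9.35 and 9.15 in supernatant, against 8.03, 7.52, 7.24 and 7.63 in media. No arrays overlapped, and the difference was 2.3 log2 (SE 0.452, 4.92-fold, limma adjusted p = 0.000895). It was 2.78 log2 within replicates 1 and 2 and 1.82 within replicates 3 and 4, both called.

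In Bm12.4 cells Ptx3 was 8.74, 8.06, 7.01 and 7.5 log2 in supernatant, against 8.91, 8.64, 6.96 and 6.45 in media. In C57epi.1 cells it was 6.45, 6.94, 6.59 and 6.62 in supernatant, against 6.14, 5.73, 6.5 and 6.56 in media. The groups overlapped in both lines. The differences were 0.09 log2 in Bm12.4 cells (95% interval -0.85 to 1.03) and 0.42 in C57epi.1 cells (95% interval -0.52 to 1.36), and neither was called. In replicates 1 and 2 they were -0.38 and 0.76 log2, and in replicates 3 and 4 they were 0.55 and 0.08, with no call.

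The treatment difference of Ptx3 was lower in Bm12.4 cells than in macrophages, by -2.21 log2 (SE 0.639, limma adjusted p = 0.0426). That call lay near the threshold and was lost in 15 of the 24 fits that left out 1 array, with values of -2.64 to -1.82 log2 over all such fits and adjusted p up to 0.103. Within replicates 1 and 2 it was -3.16 log2 and within replicates 3 and 4 it was -1.27, both called. C57epi.1 cells minus macrophages gave -1.88 log2, which was not called (adjusted p = 0.0679) but was with replicate number as a block (adjusted p = 0.026). Same-numbered arrays of these cells were taken to share only a number, so the block call is a description. By group mean Ptx3 stood highest in macrophage supernatant (9.9 log2), without overlap. Bm12.4 supernatant (7.83), Bm12.4 media (7.74) and macrophage media (7.6) overlapped in turn. C57epi.1 supernatant (6.65) did not overlap with macrophage media, and it overlapped with C57epi.1 media (6.23).

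**Figure D3:**
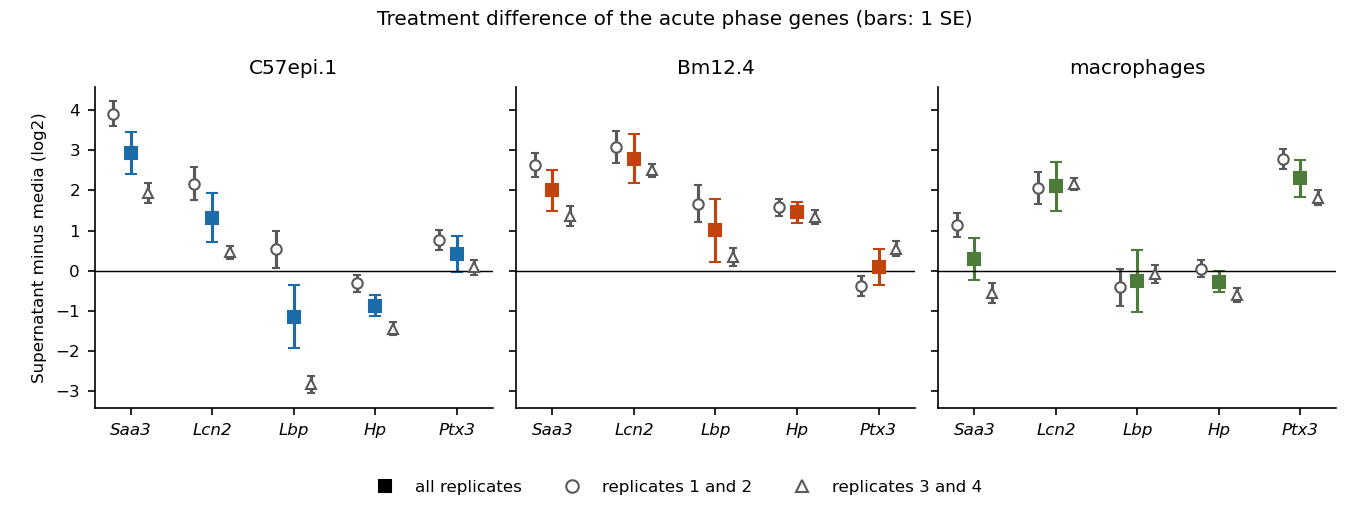
Supernatant minus media in log2 (y axis) for each acute phase gene in each kind of cell, over all 4 replicates (filled squares), replicates 1 and 2 (open circles) and replicates 3 and 4 (open triangles), with bars of 1 SE. Lbp in C57epi.1 cells stands at 0.53 in replicates 1 and 2 and at -2.84 in replicates 3 and 4.

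Within replicates 1 and 2 alone, 2 members were called in C57epi.1 cells (11.3% of all genes, either way) and 4 in Bm12.4 cells (8.85%). Within replicates 3 and 4 alone, 4 were called in C57epi.1 cells (29.2%) and 3 in Bm12.4 cells (16%). In C57epi.1 cells Saa3 and Lcn2 were called higher in each pair of replicates, and Lbp and Hp were called lower in replicates 3 and 4.

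Between the lines, C57epi.1 stood below Bm12.4 for most members. In supernatant 0 members were called higher in C57epi.1 and 4 lower, where 14.3% of all genes were higher and 15.6% lower. The difference was -5.83 log2 for Lbp (56.7-fold, limma adjusted p = 3.03e-06), -4.44 for Saa3 (21.7-fold, adjusted p = 4.54e-07), -1.7 for Lcn2 (adjusted p = 0.04) and -1.47 for Hp (adjusted p = 0.00011). Lbp, Saa3, Lcn2 and Hp each showed no overlap between the lines, and the share of all genes without overlap is not given here. The Lcn2 call was lost in 5 of the 24 fits that left out 1 array, with the value nearest 0, -1.21 log2, without C57epi.1 supernatant replicate 1. Ptx3 differed by -1.18 log2 and was not called (adjusted p = 0.0537), though its arrays did not overlap. With replicate number as a block it was called (adjusted p = 0.0207), though same-numbered C57epi.1 arrays were taken to share only a number.

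In media 1 member was called higher and 3 lower, where 12% of all genes were higher and 12.5% lower. The difference was -5.37 log2 for Saa3 (41.3-fold, limma adjusted p = 2.99e-08), -3.66 for Lbp (12.6-fold, adjusted p = 0.000996) and -1.51 for Ptx3 (adjusted p = 0.0158), and 0.87 for Hp (adjusted p = 0.0169). Saa3 and Lbp did not overlap between the lines in media, whereas Hp and Ptx3 did. The Hp call was lost without C57epi.1 media replicate 3 (0.73 log2) or 4 (0.62 log2). The Ptx3 call was lost without C57epi.1 media replicate 2 (-1.34 log2) or Bm12.4 media replicate 1 (-1.12 log2) or 2 (-1.21 log2). Within replicates 3 and 4 the Ptx3 difference was -0.18 log2 (adjusted p = 0.561), and within replicates 1 and 2 the Hp difference was 0.4 (adjusted p = 0.277). Lcn2 in media was not called (-0.22 log2, 95% interval -1.5 to 1.06), and within replicates 3 and 4 it was called higher in C57epi.1 cells (0.6 log2, adjusted p = 0.00983).

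Against macrophages, C57epi.1 had 0 members called higher and 4 lower in supernatant, where 23% of all genes were higher and 24% lower. In media it had 1 higher, Lbp, and 3 lower, where 22.7% were higher and 21.8% lower. Saa3 differed by -2.92 log2 in supernatant and -5.56 in media, Hp by -4.94 and -4.34, and Ptx3 by -3.25 and -1.37, all called lower. The Ptx3 call in media was lost without C57epi.1 media replicate 2 (-1.2 log2) or macrophage media replicate 1 (-1.23 log2). Lcn2 was called lower in supernatant (-1.67 log2, limma adjusted p = 0.0284) and not in media (-0.89 log2, adjusted p = 0.279). The supernatant call was lost without C57epi.1 supernatant replicate 1 (-1.19 log2) or macrophage supernatant replicate 1 (-1.6 log2) or 2 (-1.63 log2). In media Lcn2 was called both ways by replicate pair, lower in C57epi.1 cells in replicates 1 and 2 (-2.65 log2, adjusted p = 0.000105) and higher in replicates 3 and 4 (0.88 log2, adjusted p = 0.000389).

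Bm12.4 had 2 members called higher and 2 lower than macrophages in supernatant, where 21.9% of all genes were called in each direction. In media it had 1 higher and 1 lower, where 22.1% were higher and 20.8% lower. Saa3 was higher by 1.52 log2 in supernatant (limma adjusted p = 0.0206) and not called in media (-0.19 log2, adjusted p = 0.825). The supernatant call was lost without Bm12.4 supernatant replicate 3 (1.31 log2) or macrophage supernatant replicate 3 (1.21 log2) or 4 (1.4 log2). It was 0.45 log2 in replicates 1 and 2 (adjusted p = 0.272) and 2.6 in replicates 3 and 4 (adjusted p = 8.16e-07). In media Saa3 was called lower in Bm12.4 cells in replicates 1 and 2 (-1.04 log2, adjusted p = 0.0133) and higher in replicates 3 and 4 (0.66 log2, adjusted p = 0.0435). Over all replicates Lcn2 was called in neither condition, at 0.02 log2 in supernatant (95% interval -1.25 to 1.3) and -0.66 in media (-1.94 to 0.61). By replicate pair it was called lower in media in replicates 1 and 2 (-1.6 log2, adjusted p = 0.00514) and higher in supernatant in replicates 3 and 4 (0.62 log2, adjusted p = 0.00566). In the other pairs it was 0.28 log2 in media (adjusted p = 0.198) and -0.58 in supernatant (adjusted p = 0.284). Ptx3 was lower in supernatant (-2.07 log2, limma adjusted p = 0.000516) and not called in media (0.13 log2, adjusted p = 0.857). In media it was called both ways by replicate pair, at 1 log2 in replicates 1 and 2 (adjusted p = 0.00428) and -0.73 in replicates 3 and 4 (adjusted p = 0.00635).

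Tests of the treatment difference between kinds of cell called few members. For C57epi.1 minus Bm12.4, 0 were higher and 1 lower, where 1.99% and 2.04% of all genes were called. For C57epi.1 minus macrophages, 1 was higher and 0 lower, where 5% and 4.94% were called. For Bm12.4 minus macrophages, 1 was higher and 1 lower, where 3.19% and 2.45% were called. These were the Hp, Saa3 and Ptx3 values given above.

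The marker genes of the labelled cells were checked beside these levels. All 16 macrophage markers averaged above 6 log2 in macrophages, and 1 of 16 did in the lines. Of 10 dendritic cell markers, 4 passed 6 log2 in macrophages, 1 in C57epi.1 supernatant and 0 in the other groups of the lines. Of 18 epithelial markers, 4 passed 6 log2 in C57epi.1 cells and 3 in Bm12.4 cells. Krt19, a keratin of simple epithelia, averaged 11.31 to 12.12 log2 in the lines, whereas Epcam, an epithelial adhesion molecule, averaged 3.67 to 3.75. Of 14 stromal markers 9 or 10 passed 6 log2 in the lines, and 6 did in macrophage supernatant and 7 in macrophage media. None of 9 hepatocyte markers passed it in any group. Neutrophils store the proteins of Lcn2, Hp and Ptx3 in granules, so their markers were read too. In macrophages 5 of 19 neutrophil markers passed 6 log2 (Mmp8, Chil3, Mmp9, Padi4 and Gsr), and the mean over the list was 5.9 to 6.06 on the supernatant arrays and 5.73 to 5.99 on the media arrays. In supernatant 13 of the 19 were called lower in C57epi.1 cells than in macrophages and 1 higher, where 24% of all genes were lower and 23% higher. In Bm12.4 supernatant 14 were lower (21.9% of all genes). In media 10 were lower in C57epi.1 cells (21.8%) and 11 in Bm12.4 cells (20.8%). The granule genes Ltf and Camp averaged 3.7 and 4.57 log2 in macrophages in supernatant, and 3.79 and 4.36 in media, and Ngp, Elane and Mpo averaged under 5 in both. In these cultures, fewer cells of a type and less RNA per cell cannot be told apart.

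Other acute phase genes were followed in a list of 31 measured genes, chosen, like the lists below, with earlier results of these data known. The list had 4 genes higher and 0 lower in C57epi.1 cells, 5 higher and 1 lower in Bm12.4 cells, and 3 higher and 0 lower in macrophages. Of all genes, 8.85% were higher and 10.4% lower in C57epi.1 cells, 4.54% and 2.7% in Bm12.4 cells, and 6.13% and 6.31% in macrophages. Complement factor B, Cfb, which drives the alternative pathway, rose by 5.37 log2 in C57epi.1 cells, 5.44 in Bm12.4 cells and 2.78 in macrophages. C4b, a classical pathway component, rose by 3.59 log2 in C57epi.1 and 3.69 in Bm12.4 cells, and was not called in macrophages (0.4 log2). Serping1, the C1 inhibitor, rose by 2.03, 4.01 and 0.79 log2 in C57epi.1 cells, Bm12.4 cells and macrophages. Cp, the copper protein ceruloplasmin, rose by 1.25 log2 in C57epi.1 cells and was not called in Bm12.4 cells (0.7 log2) or macrophages (0.12 log2). Il1rn, the IL-1 receptor antagonist, rose by 2 log2 in macrophages. Orm1, Serpina3n and Hpx, classical acute phase genes of the liver, were called in none of the 3 over all replicates. Of 8 negative acute phase genes, 1 was called, Ahsg (fetuin A), which fell by 1.99 on the log2 scale in C57epi.1 cells (limma adjusted p = 0.0145) with overlapping arrays. Its C57epi.1 media arrays were 4.82, 4.4, 7.81 and 8.29 log2, and the difference was -0.52 in replicates 1 and 2 (adjusted p = 0.341) and -3.45 in replicates 3 and 4 (adjusted p = 1.36e-07).

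Cytokines that induce acute phase genes numbered 10 measured genes, of which 2 were called higher in C57epi.1 cells, 1 in Bm12.4 cells and 2 in macrophages, with 1 lower in macrophages. The shares over all genes were 8.85%, 4.54% and 6.13% higher in those cells, and 6.31% lower in macrophages. Il6 rose by 2.1 log2 in C57epi.1 and 2.09 in Bm12.4 cells and was not called in macrophages (0.2 log2). Its group means were 4.76 and 4.88 log2 in C57epi.1 and Bm12.4 supernatant, against 2.66 and 2.79 in C57epi.1 and Bm12.4 media. These means lay below the array medians, and no detection calls were used. Lif, another cytokine that signals through gp130, rose by 1.84 log2 in C57epi.1 cells and was not called in Bm12.4 cells (0.31 log2) or macrophages (0.33 log2). In macrophages Il33, an IL-1 family cytokine, rose by 3.29 log2 and Tnf by 1.88 log2. Il1b and Osm were called in no kind of cell over all replicates. Il17a had a macrophage difference of -0.3 log2, called lower, at group means of 4.31 and 4.61, also below the array medians.

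Of 13 receptors for these cytokines, 5 were called higher in Bm12.4 cells and 0 lower. In C57epi.1 cells 0 were higher and 2 lower, and in macrophages 2 were higher and 2 lower. Of all genes 4.54% were higher and 2.7% lower in Bm12.4 cells, 8.85% and 10.4% in C57epi.1 cells, and 6.13% and 6.31% in macrophages. Lifr, the LIF receptor, rose by 2.22 log2 in Bm12.4 cells, and Osmr, the oncostatin M receptor, by 1.28. In macrophages Il1r2, a decoy receptor for IL-1, rose by 1.25 log2 and the TNF receptor gene Tnfrsf1a by 0.72, while Ifngr1, an interferon-gamma receptor chain, fell by 0.8 on the log2 scale. Il6st, the shared gp130 chain, differed by -0.33 log2 in C57epi.1 cells, 0.4 in Bm12.4 cells and -0.31 in macrophages, each called.

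Of 22 measured regulators of acute phase transcription, 13 were called higher in C57epi.1 cells, 11 in Bm12.4 cells and 9 in macrophages, and 1 lower, in macrophages. Over all genes 8.85%, 4.54% and 6.13% were called higher in those cells. Their median difference was 0.669, 0.469 and 0.412 log2 in that order of cells. Irf1, an interferon-induced transcription factor, rose by 3.55, 2.41 and 3.87 log2. Tnfaip3, a feedback inhibitor of NF-kappaB, rose by 1.9, 2.2 and 1.1 log2, and the kinase gene Jak2 by 1.14, 1.25 and 1.32. Socs1, which dampens interferon-gamma signalling, rose by 0.98, 1.29 and 2.09 log2. Nfkbiz, the NF-kappaB cofactor that Lcn2 is known to need in mouse cells, rose by 1.08, 1.15 and 0.61 log2. Cebpb rose by 0.8 log2 in C57epi.1 cells and was not called in Bm12.4 cells (0.01 log2) or macrophages (0.21 log2). Socs3, a feedback inhibitor of gp130 signalling, rose by 1.39 log2 in macrophages and was not called in the lines over all replicates. Stat3 and Cebpd were called in none over all replicates. The media arrays of Cebpd were split like those of Saa3 and Lbp, at 5.88, 5.87, 7.45 and 7.22 log2 in C57epi.1 media and 6.87, 6.53, 7.58 and 8.1 in Bm12.4 media. Its treatment difference in C57epi.1 cells was 0.23 log2 in replicates 1 and 2 (adjusted p = 0.524) and -1.37 in replicates 3 and 4 (adjusted p = 3.03e-05).

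Partners of the 5 proteins were measured in a list of 24 genes. In C57epi.1 cells 5 were called higher and 3 lower, in Bm12.4 cells 1 each way, and in macrophages 0 higher and 1 lower. Of all genes 8.85% were higher and 10.4% lower in C57epi.1 cells, 4.54% and 2.7% in Bm12.4 cells, and 6.13% and 6.31% in macrophages. Of the endotoxin partners of Lbp, Cd14 averaged 9.27 log2 in macrophages in supernatant and 9.74 in media, and under 5 in every group of the lines. Tlr4 averaged 8.04 log2 in C57epi.1 supernatant and 8.47 in C57epi.1 media, and it was called in no kind of cell over all replicates. Its means were 9.78 log2 in Bm12.4 supernatant and 9.74 in Bm12.4 media, and 9.77 in macrophage supernatant and 9.32 in macrophage media. Its cofactor Ly96 rose by 0.65 log2 in C57epi.1 cells (limma adjusted p = 0.039). Tlr2, a receptor for bacterial lipoproteins, rose by 1.7 log2 in Bm12.4 cells.

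Cd163, the macrophage receptor that clears the haptoglobin complex, averaged 3.31 to 3.46 log2 in all groups and was not called. Hmox1, which breaks down haem, rose by 2.12 log2 in C57epi.1 cells, and Lrp1, the haemopexin receptor, fell by 1.28 on the log2 scale there. Tnfaip6, which works with Ptx3 in hyaluronan matrix, rose by 1.53 log2 in C57epi.1 cells, where Ptx3 was not called. Mmp9, a protease that forms a complex with lipocalin 2 in human neutrophils, fell by 0.98 on the log2 scale in macrophages, with overlapping arrays. Slc22a17, reported as a lipocalin 2 receptor, was called in none.

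The replicate pairs also moved several of these other genes. In C57epi.1 cells the difference in replicates 1 and 2 and in replicates 3 and 4 was 4.8 and 2.38 log2 for C4b, 1.74 and 0.75 for Cp, and 0.95 and 0.37 for Ly96, all called. Osmr in Bm12.4 cells was 1.84 and 0.71 log2, both called. The calls of Il6st were lost in replicates 1 and 2 of C57epi.1 cells, in replicates 3 and 4 of Bm12.4 cells and in either pair of macrophages. In macrophages the call of Nfkbiz was lost in replicates 1 and 2, that of Tnfaip3 in replicates 3 and 4, and that of Il17a in either pair.

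Some genes that were not called over all replicates of a kind of cell were called within a pair. Stat3 was called higher in replicates 1 and 2 of C57epi.1 cells (0.66 log2), Bm12.4 cells (0.97) and macrophages (0.67), and in replicates 3 and 4 of macrophages (0.63). Tlr4 was called in replicates 3 and 4, at -0.84 log2 in C57epi.1 cells and 0.56 in macrophages. Socs3 was called lower in replicates 3 and 4 of C57epi.1 cells (-0.42 log2) and Bm12.4 cells (-0.69 log2), and Cebpd higher in replicates 1 and 2 of Bm12.4 cells (0.92 log2). Cp was called higher in replicates 1 and 2 of Bm12.4 cells (1.15 log2) and in replicates 3 and 4 of macrophages (0.6 log2), and C4b in replicates 3 and 4 of macrophages (0.76 log2). Orm1 was called in replicates 1 and 2 of macrophages (1 log2) and in replicates 3 and 4 of Bm12.4 cells (0.91 log2). Serpina3n was called in replicates 3 and 4 of Bm12.4 cells (-0.76 log2), and Il1b in replicates 1 and 2 of macrophages (0.79 log2).

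**Figure D4:**
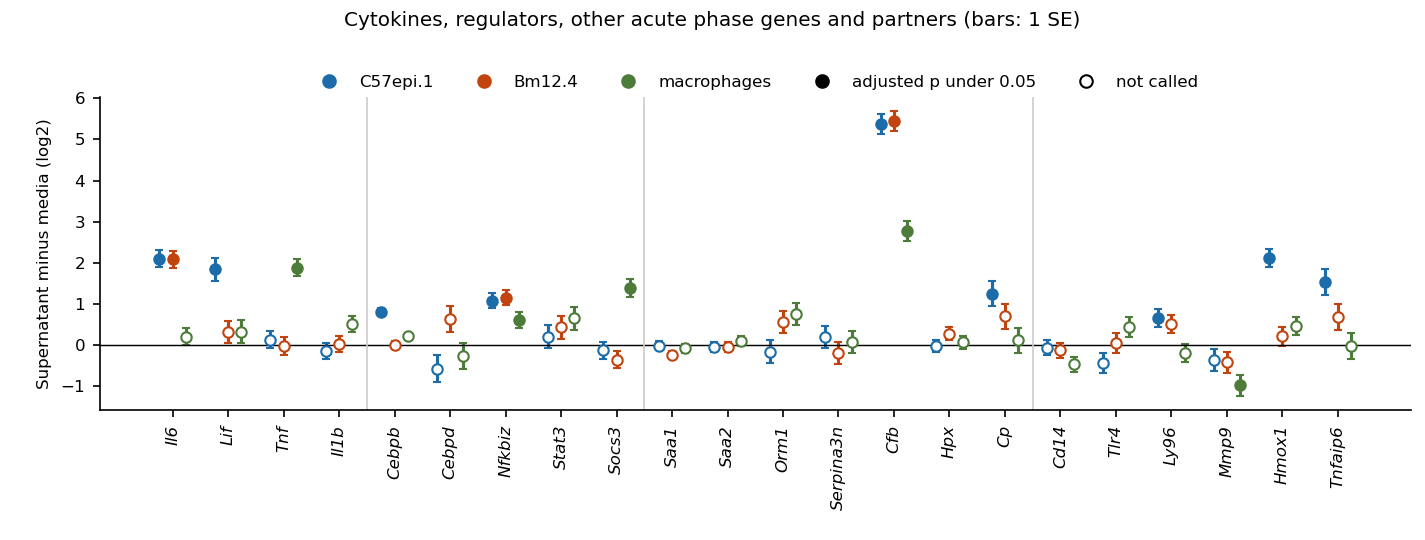
Supernatant minus media in log2 (y axis) for cytokines, regulators, other acute phase genes and partners, set apart by vertical lines, in C57epi.1 cells, Bm12.4 cells and macrophages, with bars of 1 SE and filled symbols where the adjusted p was under 0.05. Cfb stands highest in both lines, at 5.37 and 5.44, while Saa1 and Saa2 lie near 0.

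The genes nearest to each member over the 6 group means were ranked by the root mean square of the difference between centred profiles, in log2. Nearest to Saa3 were Tnfaip2, a TNF-induced gene (0.628), Xdh, xanthine dehydrogenase (0.869), and Ifih1, a sensor of double-stranded RNA (0.887). Nearest to Lcn2 were Wars, a tRNA synthetase (0.316), Uba7, the enzyme that activates ISG15 (0.326), and H2-T10, a non-classical MHC class I gene (0.375). Nearest to Lbp were Ghr, the growth hormone receptor (0.252), Lrrn4 (0.374) and Prelp, a matrix proteoglycan (0.541). Nearest to Hp were Slc43a2, an amino acid transporter (0.437), Fgr, a Src-family kinase of myeloid cells (0.45), and Ak8, an adenylate kinase (0.462). Nearest to Ptx3 were Tmem67 (0.396), Grina (0.421) and Tmem178 (0.458). Among the members, Lcn2 and Ptx3 were closest to each other (0.928), and Lbp and Hp were farthest apart (4.58). None of the 5 had another member among its 3 nearest genes.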

How the data were processed

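Total RNA, 100 ng per array, was labelled and hybridised to 24 arrays. The deposited values are log2 signals for 28853 probe sets, made with GCOS, Partek 6.2 and RMA per the submitters' processing notes; the sources used here do not give the order of these steps or the array's genome build. RMA aligns arrays, and no detection calls were used here. A low log2 value thus cannot be told from background for 1 gene. Array medians lay between 5 and 5.19, and the number of arrays limits the precision. Symbols came from the platform annotation: 21789 probe sets had 1 symbol, 1621 several and 5443 none. The probe set of highest mean was kept, giving 19938 genes. Arrays within a group correlated at 0.967 to 0.9975, and none were identical.

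The 12 comparisons used limma 3.58.1 (R 4.3.3, statmod 1.5.0), with 1 mean per group, 18 residual and 3.62 prior degrees of freedom, two-sided tests and Benjamini-Hochberg adjustment. The code was tested on simulated data. Alternatives covered the arrays fitted, weights, normalization, filters, replicate pairs and single arrays. Same-numbered supernatant and media arrays had correlated deviations in all 4 Bm12.4 pairs (0.226 to 0.683), and a replicate block was fitted there. Bm12.4 arrays of different number within replicates 1 and 2 or within 3 and 4 also correlated (0.643, 0.191, 0.595 and 0.413). Pairing by number thus cannot be told from the split of the replicates. In C57epi.1 cells (-0.143 to 0.396) and macrophages (-0.134 to 0.118) same-numbered arrays were taken to share only a number. C57epi.1 arrays of different number within the same replicates gave 0.481, 0.0359, 0.162 and 0.384.

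The members and lists were chosen with earlier results of these data known. Always named were the members and fixed genes of each list, up to 3 called genes of a list with the largest differences, and the 3 nearest profiles. Some listed genes, C3 among them, were not analysed here.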

Additional observations from a re-analysis of the deposited data

Results flagged for a closer look

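The treatment difference of 3 members differed between kinds of cell by an interaction test in limma. Saa3 differed by 2.64 log2 between C57epi.1 cells and macrophages (adjusted p = 0.0239). Hp differed by -2.34 log2 between C57epi.1 and Bm12.4 cells (adjusted p = 0.000632) and by 1.74 log2 between Bm12.4 cells and macrophages (adjusted p = 0.00464). Ptx3 differed by -2.21 log2 between Bm12.4 cells and macrophages (adjusted p = 0.0426). Dixon's test for an array apart from the others of its group was run on the 30 combinations of member and group and found 0. It looks for 1 array apart and is not made to find a split of 2 arrays against 2, such as that of Lbp in C57epi.1 media.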

How the results depend on the processing

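Over the alternatives, 1986 values of the members kept their side of the threshold, 62 lost a call, 53 gained one and 4 took the opposite sign with a call. Of the 1986, 1379 came from fits that left out 1 array. Leaving out an array outside the groups compared does not change the difference itself. A sign change between values that were both not called was not counted, so the 1986 include such changes. Lbp in C57epi.1 cells, for example, was -1.15 log2 over all replicates and 0.53 in replicates 1 and 2. The 4 values with a called opposite sign were all in media within replicates 3 and 4. Lcn2 was at 0.6 for C57epi.1 minus Bm12.4 and 0.88 for C57epi.1 minus macrophages. For Bm12.4 minus macrophages Saa3 was at 0.66 and Ptx3 at -0.73. Tlr2 in C57epi.1 cells also turned there, to -0.36. The cause was not tested.

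With only the arrays compared, Hp in C57epi.1 cells (-0.88, adjusted p = 0.0737) and Saa3 in Bm12.4 cells (2, adjusted p = 0.12) were not called. With array weights Lbp in C57epi.1 cells was called (-2.09, adjusted p = 0.00612). Within replicates 1 and 2, Lcn2 in C57epi.1 cells (2.17), Lbp in Bm12.4 cells (1.67) and Saa3 in macrophages (1.14) gained a call, and Hp in C57epi.1 cells (-0.31) lost it. Within replicates 3 and 4, Lcn2 (0.46) and Lbp (-2.84) in C57epi.1 cells and Hp in macrophages (-0.61) gained one. Leaving out 1 array gave ranges of 1.61 to 2.44 for Saa3 in Bm12.4 cells, 2.01 to 2.21 for Lcn2 in macrophages, 0.66 to 1.84 for Lcn2, -2.11 to -0.39 for Lbp and -1.13 to -0.63 for Hp in C57epi.1 cells.

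Genes called higher and lower numbered 1765 and 2067 in C57epi.1 cells, 906 and 539 in Bm12.4 cells, and 1223 and 1259 in macrophages. At 2-fold or more these were 510 and 254, 345 and 24, and 418 and 215. With only the arrays compared they were 574 and 212 in Bm12.4 cells, with 1951 lower in macrophages. Array weights gave 2696 and 3343 in C57epi.1 cells and 2124 lower in macrophages. Genes lower in Bm12.4 cells numbered 352 with median-centred arrays and 840 over all probe sets. Within replicates 1 and 2, 1055 were lower in C57epi.1 cells. Within replicates 3 and 4, 2734 were higher there, and 1644 and 1545 were higher and lower in Bm12.4 cells.

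The replicate block within Bm12.4 arrays alone, chosen after seeing the data, gave 732 genes higher and 343 lower and changed no call of a member there. As a block in the whole model, replicate number gained 3 member calls: Ptx3 for C57epi.1 minus Bm12.4 in supernatant (adjusted p = 0.0207), Lbp for C57epi.1 minus macrophages in supernatant (adjusted p = 0.0418), and Ptx3 for the treatment difference of C57epi.1 minus macrophages (adjusted p = 0.026). All 3 involve C57epi.1 cells, whose same-numbered arrays were taken to share only a number, so these calls are a description.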
